A study of Rattus norvegicus with 12 samples.

Results

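DNA replication and S phase genes were examined in cultured neonatal rat cardiac fibroblasts after depletion of Yap, Wwtr1 or both. The 48 genes form a list of the replication machinery, nucleotide supply and the E2F and cyclin E genes of S phase entry, chosen by name. Of these, 46 were among the 12271 genes of the table of normalized read counts, and all 46 passed the filter for testing (a mean of at least 10 normalized counts), as 11871 genes did in all. Chaf1a and E2f2 were not analysed here. Values of these members ran from 68.6 normalized counts (Pole2, double knockdown replicate 1) to 4299.6 (Dnmt1, Yap siRNA replicate 3).

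Cells came from the heart ventricles of Sprague Dawley rat pups at P2 and are labelled cardiac fibroblasts, although the design text of the series speaks of cardiac myocytes. The labels give 15% serum and the study's methods a lower share. The related coactivators Yap, listed under the symbol Yap1, and Wwtr1, known too as Taz, bind TEAD transcription factors. The 4 groups of 3 libraries each had received a pair of universal negative control siRNAs (negative siRNA), Yap siRNA, Wwtr1 siRNA, or Yap + Wwtr1 siRNA (double knockdown, or after both), with 25 nM of each siRNA and collection at 48 hours. Each target was met by 2 siRNAs. With 25 nM of each, the double knockdown received more siRNA in total than the other groups. That load cannot be told apart from the loss of both targets. All groups shared the culture conditions and the transfection reagent, no untransfected library was analysed here, and the cells were primary cultures, with separate litters for the replicates per the study's methods. The siRNA label of the double knockdown names only the Wwtr1 siRNAs, so that group was taken from the titles.

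Replication starts at origins, where the origin recognition complex, Cdc6 and Cdt1 load the ring of Mcm proteins in G1 phase. Cdc45 and the GINS complex turn the ring into an active helicase, after which the primase, the polymerases, the sliding clamp Pcna and its loader copy the strands. The transcription of these genes rises as cells enter S phase, driven by E2F factors once cyclin-dependent kinases have released them from the retinoblastoma protein, and their RNA is often read as a sign of how many cells of a culture are cycling. Cultured neonatal cardiac fibroblasts proliferate in serum, and Yap and Wwtr1 are known to promote proliferation in many cell types.

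Promoter sequence was searched for the E2F element. RefSeq windows of assembly GRCr8, from 250 bases before to 50 after the annotated start, were at hand for 39 of the 46 members. Mcm4, Orc1, Cdc6, Gins4, Rrm2, E2f1 and Ccne2 had none in the table. The letters TTTGGCGC, TTTCGCGC, TTTGCCGC and TTTCCCGC were searched on both strands. The stretches below were chosen because they hold a match, belong to members that fell in the double knockdown and lie upstream of the start used for each window. Those of Mcm2 and Tyms are short because the annotated bounds of both genes reach further upstream. Capitals mark the matched letters, which overlap on both strands in Gins1, Mcm6 and Mcm2.
Mcm5, chr19:13488713-13488812, plus strand: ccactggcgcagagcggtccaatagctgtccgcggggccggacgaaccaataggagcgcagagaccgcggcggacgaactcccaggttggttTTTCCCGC
Gins1, chr3:160184820-160184919, plus strand: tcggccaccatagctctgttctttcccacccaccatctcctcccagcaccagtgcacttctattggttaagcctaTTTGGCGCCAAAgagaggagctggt
Mcm6, chr13:42404433-42404532, minus strand: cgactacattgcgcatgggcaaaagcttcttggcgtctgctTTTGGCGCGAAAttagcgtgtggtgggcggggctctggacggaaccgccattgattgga
Mcm2, chr4:122918095-122918124, minus strand: ggtcacgtgacccggtTTTCGCGCGAAAac
Tyms, chr9:120776102-120776131, minus strand: aaggtgcgggtTTTGGCGCcgactacactg

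The first capital stands 8 bases before the start in Mcm5, 25 in Gins1, 139 in Mcm6, 14 in Mcm2 and 37 in Tyms. In all, 19 of the 39 member windows (48.7%) held an E2F-type match, against 4.14% of the 9390 windows of genes tested and 2.37% of the 27457 genes in the whole promoter table. With only the 250 bases before the start, 10 of 39 (25.6%) held one, against 3.35% of genes tested. The share was 8 of 16 among members that fell in the double knockdown and 11 of 23 among the other members. Other replication genes held a match in 15 of 39 windows (38.5%), and mitosis genes in 1 of 22 (4.55%, Cdk1). The CHR element of mitotic promoters, TTTGAA on either strand, was in 17 of 22 mitosis gene windows (77.3%) and in 5 of 39 member windows (12.8%), beside 11.7% of genes tested. With only the 250 bases before the start these were 10 of 22 (45.5%) and 4 of 39 (10.3%), beside 10.4%. The TEAD motif, GGAATG on either strand, was in 2 member windows (5.13%, Pold1 and Rfc2), beside 11.6% of genes tested. The CCAAT box was in 24 of the 39 (61.5%), beside 38.1%. A match describes letters in these windows and was not tested for binding.

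**Figure D1:**
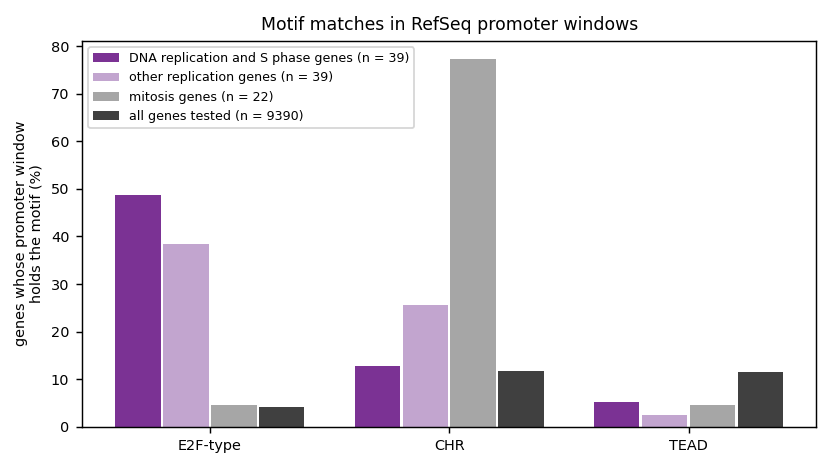
Share of genes (y axis, percent) whose RefSeq promoter window holds an E2F-type, CHR or TEAD motif (x axis), for 39 members, 39 other replication genes, 22 mitosis genes and 9390 genes tested. E2F-type matches are in 48.7% of member windows and CHR matches in 77.3% of mitosis gene windows.

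Recovered library totals ran from 33886920 to 41059839 reads. The targeted genes were low in every library that received their siRNA, and double knockdown replicate 3 kept more of both. Yap1 was 713, 739 and 1474 normalized counts in double knockdown replicates 1, 2 and 3, against 2984 to 3776 with negative siRNA. Wwtr1 was 818, 731 and 1056, against 2280.0 to 2565. All 11 fibroblast markers were abundant, with summed levels of 2686502 to 3888581. Markers of other cells were present too: 11 of 12 cardiomyocyte markers were measured (summed 42387 to 92780), all 10 endothelial markers (summed 3774 to 6193, Emcn at 0 in 7 libraries) and all 7 mural cell markers (summed 28263 to 67525). Of 13 macrophage markers 12 were measured, and their summed level was 23264 to 33630 with negative siRNA, 19772 to 29316 after Yap siRNA, 12254 to 20557 after Wwtr1 siRNA, and 7281, 14386 and 49920 in double knockdown replicates 1, 2 and 3, with Cx3cr1 at 0 in replicate 1. In mixed cultures of this kind, fewer cycling cells and less RNA per cycling cell cannot be told apart.

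The replication genes were on balance lower in every knockdown library. Their median per library, taken as the difference from the negative siRNA mean on the log2 scale, was 0.02, -0.03 and -0.01 with negative siRNA, -0.33, -0.34 and -0.09 after Yap siRNA, -0.49, -0.41 and -0.19 after Wwtr1 siRNA, and -0.75, -0.58 and -0.11 after both. All 9 knockdown libraries lay below the 3 negative siRNA libraries, and replicate 3 lay nearest to them in each knockdown group. The median over all genes tested stayed between 0.00 and 0.01 in every library. Macrophage markers had medians of -0.01, -0.25 and -0.44 after Yap siRNA, -1.23, -0.47 and -0.63 after Wwtr1 siRNA, and -2.04, -1.09 and 0.73 after both, so that the libraries had the same order for both lists in the double knockdown but not in the single knockdowns. The 19 interferon-induced genes measured had medians of 5.22, 4.72 and 3.39 after Yap siRNA, 5.19, 4.73 and 2.96 after Wwtr1 siRNA, and 6.06, 6.12 and 6.08 after both. Replicate 3 was thus lowest for them in both single knockdowns and level with the others in the double. Some markers of fibroblasts and of other cells were called in the double knockdown as well. There, beside 17.1% of all genes called higher and 15.6% lower, 5 of 10 endothelial markers were called higher (median 0.76) and 4 of 7 mural cell markers higher and 2 lower (median 0.98). Of 11 cardiomyocyte markers 3 were higher (median 0.61), of 11 fibroblast markers 4 were higher and 3 lower (median 0.10), and of 12 macrophage markers Cx3cr1 was lower (median -0.79). In the single knockdowns at most 1 marker of any of these lists was called. The part of these lists, or of the remaining Yap1 and Wwtr1 RNA, in the fall of replication genes was not tested.

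**Figure D2:**
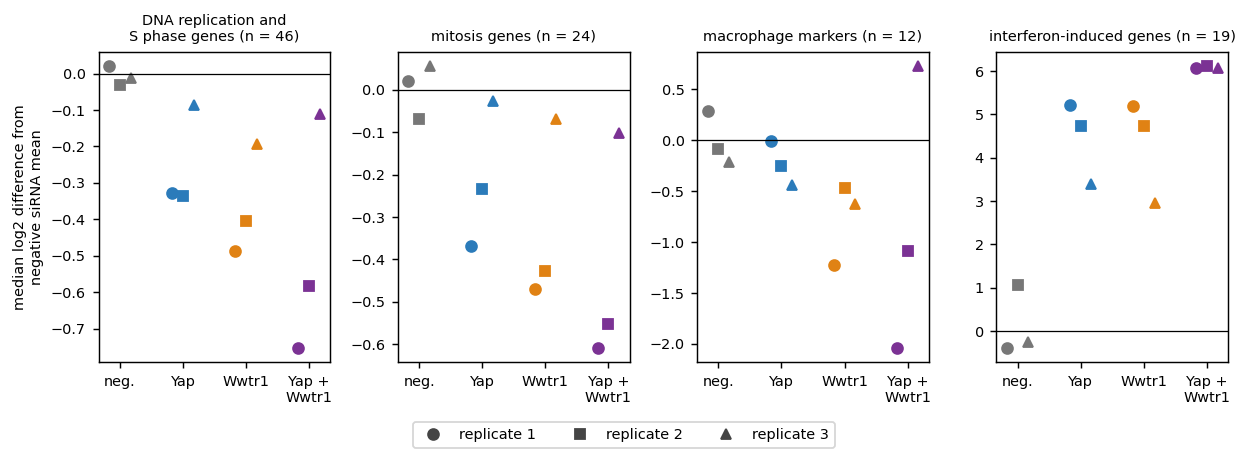
Median log2 difference from the negative siRNA mean (y axis) in each of 12 libraries by siRNA group (x axis) for 46 replication genes, 24 mitosis genes, 12 macrophage markers and 19 interferon-induced genes, with a separate y scale in each panel. Replication genes run from 0.02 down to -0.75, and replicate 3 (triangles) is the highest in every knockdown group.

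Members called in the double knockdown were all lower than with negative siRNA. In limma's moderated test over all 11871 genes, with Benjamini-Hochberg adjusted p under 0.05, 21 of the 46 members were lower and none was higher, while 15.6% of all genes were called lower and 17.1% higher. Here and below, called means by this test unless another is named. On recovered reads edgeR called 18 members lower (15.9% of all genes), without Cdc6, Mcm5, Mcm6 and Gins1 and with Slbp, and DESeq2 called 23 (16.7%), adding Uhrf1 and Ccne2. The replicate block over all 12 libraries called 28 (17.0%), adding Cdt1, Rfc3, Rrm1, Uhrf1, Chaf1b, Dnmt1 and Ccne2. An unadjusted limma p under 0.05 was reached by 32 members, beside 5080 of the 11871 genes. A fold change below 0 was seen in 45 of 46, beside 5878 of the 11871 genes. The median log2 fold change of the members was -0.51, against 0.00 over all genes tested. In 24 members every double knockdown library lay below every negative siRNA library, beside 21.5% of all genes, and in none did every one lie above. Replicate 3 was the highest of its group in 44 of 46 members, and it lay above all negative siRNA libraries in 7. Neither count was made over all genes. Without replicate 3, 40 members were lower and none higher, with a median of -0.68, beside 17.2% of all genes called lower. Without replicate 1 of the same group 8 were lower (12.4% of all genes), and without replicate 2, 10 (12.6%). Leaving out negative siRNA replicate 1 gave 9 (12.9%) and replicate 3 gave 13 (10.6%). Orc1, Mcm4, Pold2, Pole, Rpa2, Tyms, Tk1 and Dut were called in every one of the 23 alternative fits.

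**Figure D3:**
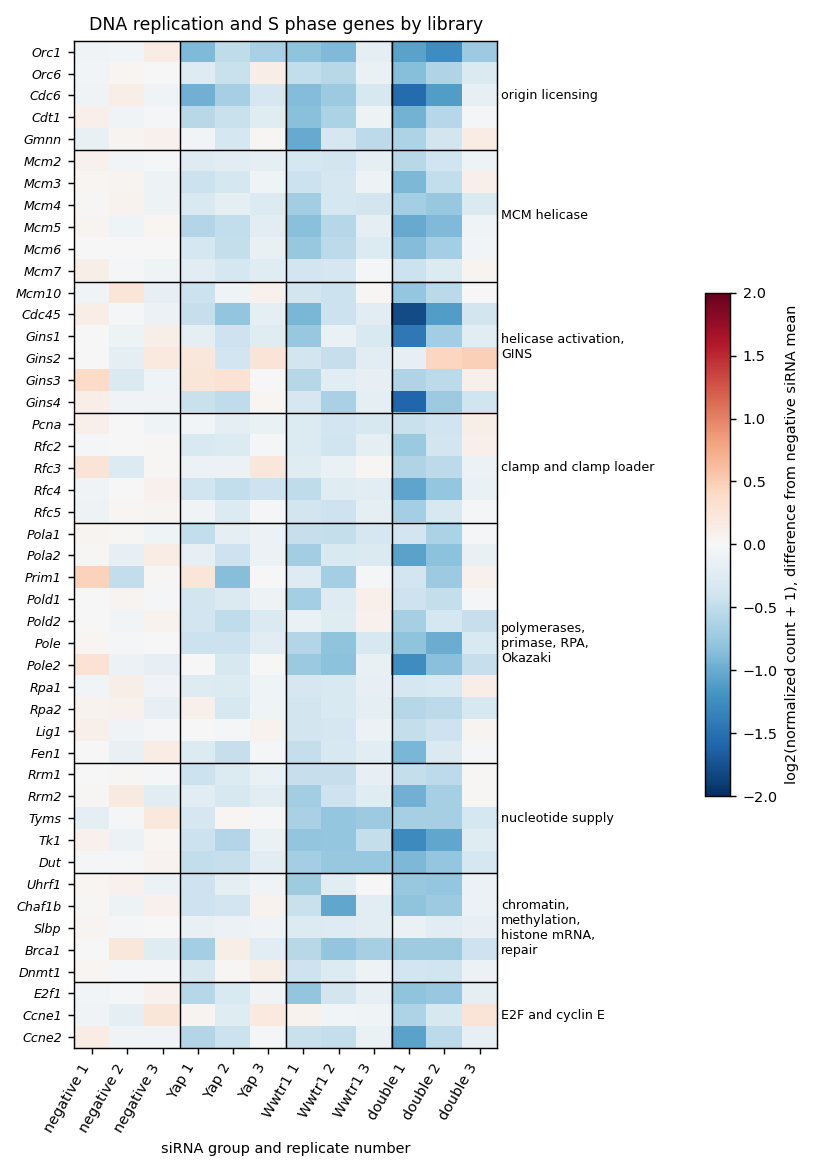
Difference of each of 46 members (rows, grouped by role) from its negative siRNA mean on the log2(normalized count + 1) scale (colour, blue lower and red higher) in the 12 libraries (columns). Columns of double knockdown replicates 1 and 2 are mostly blue, and replicate 3 is close to the negative siRNA columns.

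Fewer members were called in the single knockdowns. With Yap siRNA no member was called by limma, in either direction, beside 1.78% of all genes called lower. An unadjusted limma p under 0.05 was reached by 6 members, beside 2342 of the 11871 genes, which is a larger share. edgeR called none and DESeq2 called Orc1 and Pold2, both lower (3.40% of all genes). The median log2 fold change was -0.25, and 42 of 46 members lay below 0, beside 6018 of the 11871 genes. In 22 members all Yap siRNA libraries were below all negative siRNA libraries (12.6% of all genes). With Wwtr1 siRNA, Mcm4, Tyms, Dut and Slbp fell and none rose, beside 3.96% of all genes called lower. There, 23 members had an unadjusted limma p under 0.05, beside 2834 of the 11871 genes. The median was -0.36, and all 46 members lay below 0, beside 5831 of the 11871 genes. Of the members, 35 had no overlap with negative siRNA (16.0% of all genes). Leaving out negative siRNA replicate 1, 2 or 3 left 2 calls each (2.58%, 2.52% and 2.05% of all genes), as did leaving out Wwtr1 siRNA replicate 1 or 2 (2.14% and 2.10%). Leaving out double knockdown replicate 3, which enters only the shared spread, gave 14 (5.64%). Same-numbered libraries of the negative, Yap and Wwtr1 siRNA groups deviated together. In a fit of those 9 libraries with the replicate number as a block, 11 members were lower with Yap siRNA (7.12% of all genes) and 25 with Wwtr1 siRNA (10.3% of all genes). Among the 11 were Orc1, Cdc6, Mcm5 and Dut, with blocked limma adjusted p of 0.0228, 0.0125, 0.0197 and 0.0174. A block over all 12 libraries gave 2 with Yap siRNA (2.85% of all genes) and 12 with Wwtr1 siRNA (4.95%). In that fit, pairing of the double knockdown by its number was not established. All these comparisons share the negative siRNA libraries.

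**Figure D4:**
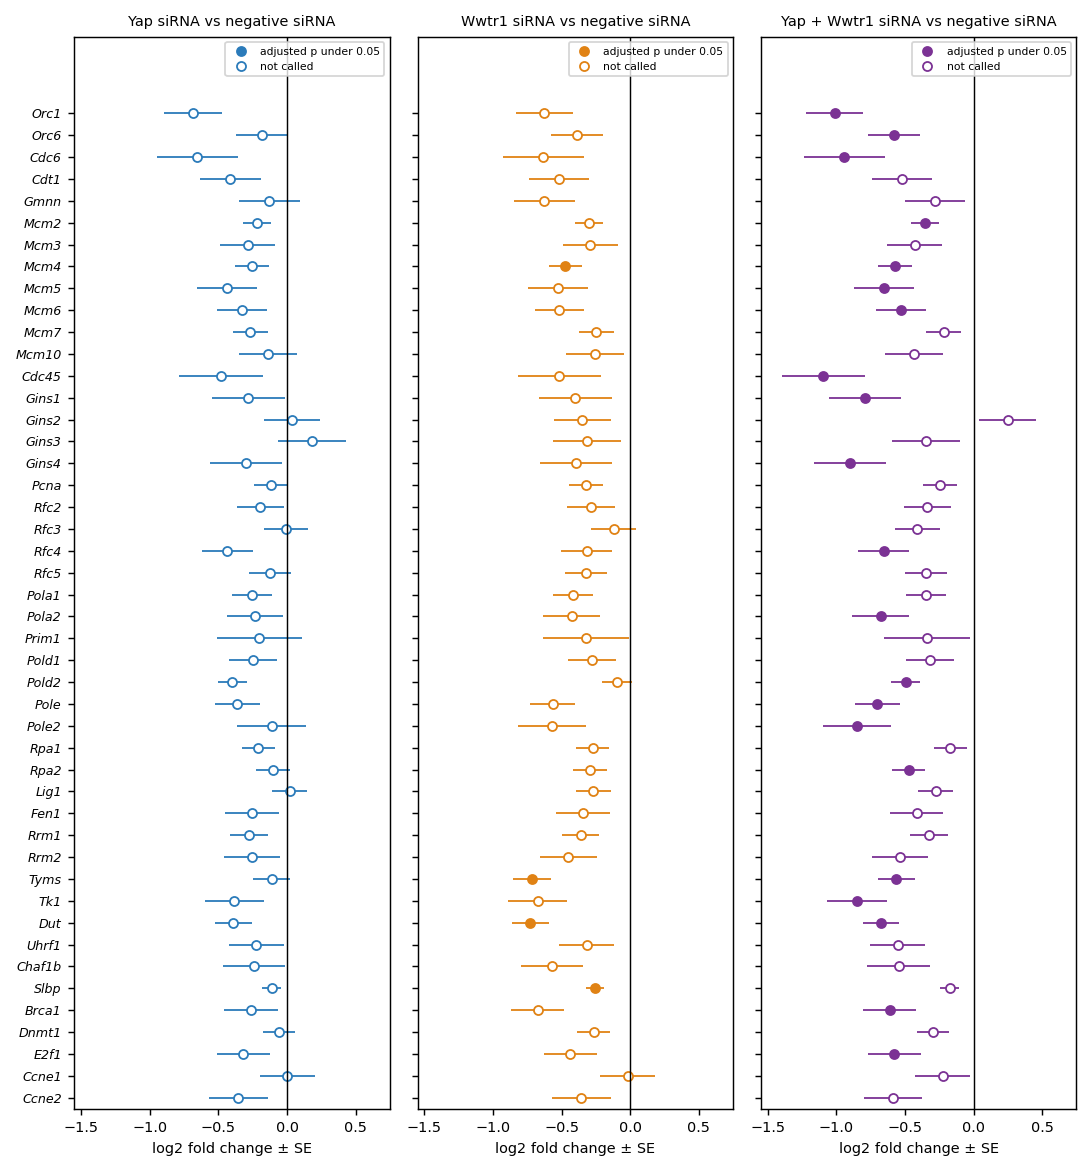
Log2 fold change with its standard error (x axis) of the 46 members (y axis) for each siRNA group against negative siRNA. Filled points passed a limma adjusted p of 0.05, which are 0 members after Yap siRNA, 4 after Wwtr1 siRNA and 21 in the double knockdown.

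Of 5 origin licensing genes, Orc1, Orc6 and Cdc6 fell in the double knockdown, beside 15.6% of all genes. Cdt1 and Gmnn were not called. Orc1, the largest subunit of the origin recognition complex, was 249, 255 and 297 normalized counts in the negative siRNA libraries, 143, 186 and 169 after Yap siRNA, 152, 144 and 233 after Wwtr1 siRNA and 126, 112 and 161 after both. Every knockdown library was below every negative siRNA library, and the fall was -1.01 (SE 0.21, adjusted p 0.00343) in the double knockdown, or 49.6% of the negative siRNA level. The single knockdowns gave -0.69 (SE 0.21, adjusted p 0.0923) with Yap siRNA and -0.63 (SE 0.21, adjusted p 0.0902) with Wwtr1 siRNA, both called with the block over 9 libraries (adjusted p 0.0228 and 0.0275) and over all 12 (0.0443 and 0.047). Orc6, another subunit of the complex, was 328, 349.9 and 343 normalized counts in the negative siRNA libraries, 286, 251 and 375 after Yap siRNA, 242, 232 and 312 after Wwtr1 siRNA and 188, 225 and 278 after both. It fell by 0.58 (SE 0.19, adjusted p 0.0327) in the double knockdown, where no library reached the negative siRNA values. Cdc6, the ATPase that recruits the helicase ring, was 459.7, 529 and 457 normalized counts in the negative siRNA libraries, 247, 302 and 381 after Yap siRNA, 263, 291 and 386 after Wwtr1 siRNA and 164, 219.9 and 430.0 after both. Its double knockdown replicate 3 lay just under the lowest negative siRNA library while the others were far below it, and the log2 fold change was -0.94 (SE 0.29, adjusted p 0.0288). Without replicate 3 it was -1.33 (SE 0.22, adjusted p 0.000804). Cdt1, which loads the ring together with Cdc6, was 691, 614 and 625 normalized counts in the negative siRNA libraries, 438, 471 and 544 after Yap siRNA, 361, 415 and 599 after Wwtr1 siRNA and 333, 432 and 622 after both. Both single knockdowns lay wholly below negative siRNA, but double knockdown replicate 3 fell within its range, and the change there, -0.52 (SE 0.22, adjusted p 0.0924), was not called by limma but was with the block over all 12 libraries. With Wwtr1 siRNA it was -0.52 (SE 0.22, adjusted p 0.178), which the block over 9 libraries called (adjusted p 0.0268) and that over all 12 did not (0.0827). Gmnn encodes geminin, which binds Cdt1 and blocks relicensing. It was 245, 284 and 289 normalized counts in the negative siRNA libraries, 262, 212 and 277 after Yap siRNA, 135, 214 and 189 after Wwtr1 siRNA and 177, 209.9 and 302 after both, with -0.63 (SE 0.22, adjusted p 0.107) for Wwtr1 siRNA and -0.28 (SE 0.22, adjusted p 0.359) for the double knockdown, neither of them called. The former was called with the block over 9 libraries (adjusted p 0.03) and not over all 12 (0.0647).

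The 6 subunits of the Mcm2 to Mcm7 helicase ring all had fold changes below 0 in every knockdown. In the double, 4 were called, beside 15.6% of all genes called lower. Mcm2 was 3927, 3556 and 3589.6 normalized counts in the negative siRNA libraries, 3093, 3199 and 3219.7 after Yap siRNA, 2905, 2873 and 3229 after Wwtr1 siRNA and 2502, 2783 and 3438 after both. All knockdown libraries lay below the negative siRNA libraries, and the double knockdown change was -0.35 (SE 0.10, adjusted p 0.0193). Mcm4 was 3461, 3549.5 and 3174 normalized counts in the negative siRNA libraries, 2748, 2968 and 2812 after Yap siRNA, 2084, 2663 and 2625 after Wwtr1 siRNA and 2118, 2008 and 2769 after both. It showed no overlap in any knockdown and was lower after Wwtr1 siRNA, at -0.47 (SE 0.12, adjusted p 0.034). The double knockdown change was -0.57 (SE 0.12, adjusted p 0.00399). Mcm5 was 2091, 1900.2 and 2068 normalized counts in the negative siRNA libraries, 1337, 1431 and 1732 after Yap siRNA, 1125, 1361 and 1790.5 after Wwtr1 siRNA and 1008, 1098 and 1902 after both. Double knockdown replicates 1 and 2 held about the same low level while replicate 3 overlapped negative siRNA, so that the change of -0.65 (SE 0.22, adjusted p 0.0393) became -0.94 (SE 0.17, adjusted p 0.00139) without it. Mcm6 was 2398, 2391 and 2433 normalized counts in the negative siRNA libraries, 1890.3, 1724 and 2164 after Yap siRNA, 1427, 1676 and 1988 after Wwtr1 siRNA and 1323, 1507 and 2327 after both, a double knockdown change of -0.53 (SE 0.18, adjusted p 0.0421), with no overlap in any of the 3 comparisons. With Wwtr1 siRNA, Mcm5 and Mcm6 were not called in the main fit but were with the block over 9 libraries and over all 12. Mcm3 and Mcm7 were not called, at -0.43 and -0.22 in the double knockdown, and replicate 3 exceeded every negative siRNA library in Mcm3.

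Of 6 helicase activation genes, Cdc45, Gins1 and Gins4 fell in the double knockdown, beside 15.6% of all genes, and 3 were not called. Cdc45, a partner of the ring in the active helicase, was 525, 473 and 442 normalized counts in the negative siRNA libraries, 348, 276 and 418 after Yap siRNA, 255, 356 and 412 after Wwtr1 siRNA and 137, 219 and 373 after both. All 9 knockdown libraries were below negative siRNA, and the double knockdown fall, -1.09 (SE 0.30, adjusted p 0.0167), was the largest of the 46. Gins1 was 244, 229.9 and 268 normalized counts in the negative siRNA libraries, 216, 184 and 209 after Yap siRNA, 145, 225 and 200.2 after Wwtr1 siRNA and 90.5, 151 and 209.7 after both. Gins4 was 465, 403 and 401 normalized counts in the negative siRNA libraries, 310.4, 298 and 434 after Yap siRNA, 335, 268 and 368 after Wwtr1 siRNA and 140.2, 256 and 321 after both. These GINS subunits changed by -0.79 (SE 0.26, adjusted p 0.0381) and -0.90 (SE 0.26, adjusted p 0.0212) in the double knockdown, with no overlap with negative siRNA. Gins2, a subunit of the same complex, was 375, 327 and 429 normalized counts in the negative siRNA libraries, 441, 288 and 447 after Yap siRNA, 289, 271 and 323 after Wwtr1 siRNA and 334, 504 and 523 after both. It was the sole member with a fold change above 0 in the double knockdown, 0.25 (SE 0.21, adjusted p 0.388), which was not called, and double knockdown replicates 2 and 3 were above every negative siRNA library. Gins3 and Mcm10, which helps to activate the helicase, were not called in any contrast by limma with all libraries, at -0.34 and -0.43 in the double knockdown.

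**Figure D5:**
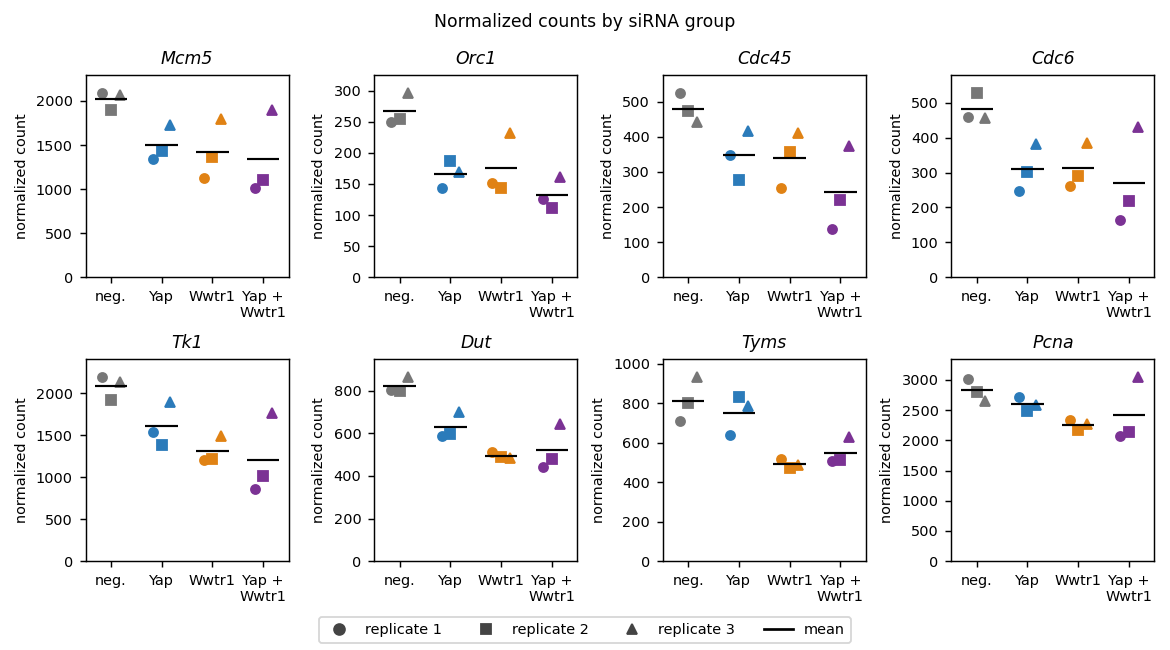
Normalized counts (y axis, from 0) of 8 members in each library by siRNA group (x axis), with symbols for the replicate number and a line at the mean. Tyms and Dut with Wwtr1 siRNA lie close together below negative siRNA, whereas double knockdown replicate 3 of Cdc6, Mcm5 and Pcna returns toward negative siRNA.

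Of the clamp and 4 subunits of its loader, 1 was called in the double knockdown, near the 15.6% of all genes called lower. Pcna, the sliding clamp, was 3022, 2799 and 2652 normalized counts in the negative siRNA libraries, 2724, 2492 and 2582 after Yap siRNA, 2330.0, 2166 and 2266 after Wwtr1 siRNA and 2066, 2131 and 3048 after both. Wwtr1 siRNA libraries were all below negative siRNA, while double knockdown replicate 3 was above all 3 of them, and neither change was called (-0.32 (SE 0.12, adjusted p 0.136) and -0.25 (SE 0.12, adjusted p 0.149)). The Wwtr1 siRNA change was called with the block over 9 libraries (adjusted p 0.00338) and not over all 12 (0.131). Without double knockdown replicate 3 the double knockdown change was -0.43 (SE 0.08, adjusted p 0.0016). Rfc4, a subunit of the loader that opens the clamp, was 578, 603 and 642 normalized counts in the negative siRNA libraries, 460.0, 432 and 456 after Yap siRNA, 428, 514 and 522 after Wwtr1 siRNA and 291, 354 and 553 after both. It was the called member of this group, at -0.66 (SE 0.19, adjusted p 0.0194) in the double knockdown, with no overlap in any knockdown. Rfc2, Rfc3 and Rfc5 ranged from -0.41 to -0.34 in the double knockdown and were not called by limma, while the block over all 12 libraries called Rfc3.

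Of 11 polymerase, primase, single-strand binding and Okazaki fragment genes, 5 fell in the double knockdown, beside 15.6% of all genes. Pola2, the accessory subunit of the polymerase alpha that starts each strand, was 787, 693 and 861 normalized counts in the negative siRNA libraries, 691, 585 and 714 after Yap siRNA, 482, 629 and 635 after Wwtr1 siRNA and 370.0, 439.8 and 704 after both. Its double knockdown change was -0.68 (SE 0.21, adjusted p 0.0255), with replicate 3 inside the range of negative siRNA. Pole, the catalytic subunit of the leading strand polymerase epsilon, was 1312, 1246 and 1291 normalized counts in the negative siRNA libraries, 955, 951 and 1098 after Yap siRNA, 854, 738 and 1031 after Wwtr1 siRNA and 732, 643 and 1042 after both. Pole2, its accessory subunit, was 200.1, 152 and 146 normalized counts in the negative siRNA libraries, 164, 131 and 163 after Yap siRNA, 98.1, 92.9 and 147 after Wwtr1 siRNA and 68.6, 92.0 and 118 after both. The double knockdown changes were -0.70 (SE 0.16, adjusted p 0.00671) for Pole and -0.85 (SE 0.25, adjusted p 0.0218) for Pole2, without overlap in either. With Wwtr1 siRNA, Pole was not called in the main fit but was with the block over 9 libraries and over all 12. Pold2, an accessory subunit of polymerase delta, was 1457, 1408 and 1538 normalized counts in the negative siRNA libraries, 1119.8, 1026 and 1200.3 after Yap siRNA, 1344, 1234 and 1553 after Wwtr1 siRNA and 926, 1147 and 1062 after both. Here Wwtr1 siRNA left the level near negative siRNA (-0.10 (SE 0.11, adjusted p 0.63)) while Yap siRNA gave -0.40 (SE 0.11, adjusted p 0.0562), just outside the threshold (adjusted p 0.00393 with the block over 9 libraries and 0.0357 over all 12), and the double knockdown gave -0.49 (SE 0.11, adjusted p 0.00425). Rpa2, part of the protein that coats single-stranded DNA, was 918, 928 and 780.3 normalized counts in the negative siRNA libraries, 935, 696 and 825 after Yap siRNA, 676, 705 and 758 after Wwtr1 siRNA and 585, 609.6 and 697 after both. It fell by 0.47 (SE 0.12, adjusted p 0.0113) in the double knockdown and the 3 libraries were close together. Pola1, Prim1, Pold1, Rpa1, Lig1 and Fen1 were not called in the double knockdown, with changes from -0.41 (Fen1) to -0.17 (Rpa1).

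Of 5 nucleotide supply genes, Tyms and Dut fell with Wwtr1 siRNA, beside 3.96% of all genes. Tyms, Dut and Tk1 fell in the double knockdown, beside 15.6%. Tyms, thymidylate synthase, was 708, 799.7 and 933 normalized counts in the negative siRNA libraries, 639, 834 and 787 after Yap siRNA, 515, 472 and 489 after Wwtr1 siRNA and 508, 511 and 632 after both. All 3 Wwtr1 siRNA libraries and all 3 double knockdown libraries lay below negative siRNA, whereas Yap siRNA overlapped it. Its changes were -0.72 (SE 0.14, adjusted p 0.00717) after Wwtr1 siRNA and -0.56 (SE 0.14, adjusted p 0.00794) after both, and -0.11 (SE 0.14, adjusted p 0.709) with Yap siRNA. Dut, the dUTPase that keeps uracil out of DNA, was 801, 799 and 864 normalized counts in the negative siRNA libraries, 586, 599 and 699 after Yap siRNA, 513, 487 and 486 after Wwtr1 siRNA and 441, 477 and 644 after both. No knockdown overlapped negative siRNA, with -0.73 (SE 0.13, adjusted p 0.00596) for Wwtr1 siRNA and -0.68 (SE 0.13, adjusted p 0.00248) for the double knockdown. Tk1, the thymidine kinase of cycling cells, was 2196, 1922 and 2132 normalized counts in the negative siRNA libraries, 1543, 1385 and 1899 after Yap siRNA, 1207, 1223 and 1497 after Wwtr1 siRNA and 858, 1013 and 1765 after both. It also showed no overlap, but replicate 3 of the double knockdown held far more than replicate 1. Its change was -0.85 (SE 0.22, adjusted p 0.0107) there and -0.68 (SE 0.22, adjusted p 0.077) with Wwtr1 siRNA, where the block gave an adjusted p of 0.000344 over 9 libraries and 0.024 over all 12. Rrm2, the S phase subunit of ribonucleotide reductase, was 2535, 2834 and 2161 normalized counts in the negative siRNA libraries, 2127, 1999 and 2147 after Yap siRNA, 1537, 1867 and 2115 after Wwtr1 siRNA and 1282, 1568 and 2534 after both. Double knockdown replicate 3 was within the negative siRNA range, and the change, -0.54 (SE 0.20, adjusted p 0.0652), was not called with it and was -0.81 (SE 0.14, adjusted p 0.00139) without it. With Wwtr1 siRNA it was -0.45 (SE 0.20, adjusted p 0.207), called with the block over 9 libraries (adjusted p 0.022) and not over all 12 (0.172). Rrm1, the other subunit, gave -0.33 in the double knockdown. There it was called only with the block over all 12 libraries or without double knockdown replicate 3. With Wwtr1 siRNA both blocks called Rrm1 lower, and with Yap siRNA that over 9 libraries did.

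Of 5 chromatin, methylation and repair genes of S phase, 1 was called with Wwtr1 siRNA, beside 3.96% of all genes lower. In the double knockdown 1 was called, near the 15.6% of all genes lower. Slbp, which binds the stem-loop of histone mRNAs, was 1174, 1098 and 1129.7 normalized counts in the negative siRNA libraries, 1021, 1046 and 1077 after Yap siRNA, 933, 946 and 963 after Wwtr1 siRNA and 1031, 972 and 1013 after both. Its libraries were close together. A fall of -0.26 (SE 0.07, adjusted p 0.0362) with Wwtr1 siRNA was called, and the double knockdown, at -0.17 (SE 0.07, adjusted p 0.0714), was not called by limma but was by edgeR. Brca1, of homologous recombination repair, was 403, 469.8 and 336 normalized counts in the negative siRNA libraries, 249.99, 433 and 340.4 after Yap siRNA, 270.2, 229.6 and 251 after Wwtr1 siRNA and 245, 243 and 298 after both, with -0.61 (SE 0.20, adjusted p 0.0312) in the double knockdown. Wwtr1 siRNA gave -0.68 (SE 0.20, adjusted p 0.0526), just outside the threshold, and the adjusted p was 0.0251 with the block over 9 libraries and 0.0573 over all 12. Both groups lay wholly below negative siRNA. Uhrf1 and Dnmt1, which copy DNA methylation onto new strands, and Chaf1b, a subunit of the chromatin assembly factor, ranged from -0.55 to -0.29 in the double knockdown and were not called by limma. DESeq2 called Uhrf1 lower there, and the block over all 12 libraries all 3. With Wwtr1 siRNA, Chaf1b was called with the block over 9 libraries and over all 12.

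E2f1, the activating E2F factor of S phase entry and itself an E2F target, was 911, 925 and 999 normalized counts in the negative siRNA libraries, 633, 764 and 896 after Yap siRNA, 548, 735 and 842 after Wwtr1 siRNA and 539, 560.2 and 838 after both. All knockdown libraries lay below negative siRNA, and the double knockdown change was -0.58 (SE 0.19, adjusted p 0.0389). With Wwtr1 siRNA, E2f1 was not called in the main fit but was with the block over 9 libraries and over all 12. The E-type cyclins, partners of Cdk2 at the G1 to S transition, were not called by limma. Ccne1 was 508, 473 and 635 normalized counts in the negative siRNA libraries, 555, 449.8 and 612 after Yap siRNA, 558, 516 and 508 after Wwtr1 siRNA and 349, 426 and 641 after both. It overlapped negative siRNA in each knockdown and gave -0.23 (SE 0.20, adjusted p 0.422) in the double. Ccne2 was 554, 476 and 479.6 normalized counts in the negative siRNA libraries, 333, 373 and 486 after Yap siRNA, 368, 359 and 455 after Wwtr1 siRNA and 238, 349.5 and 448 after both. Its double knockdown libraries all lay below negative siRNA, at -0.59 (SE 0.21, adjusted p 0.0532), just outside the threshold, and it was called lower by DESeq2 and with the block over all 12 libraries. Of 9 other E2F and pocket protein genes tested, Rbl2, a pocket protein of quiescent cells, rose in the double knockdown (0.40, SE 0.11, adjusted p 0.0147) and E2f6, a repressive E2F, fell (-0.63, SE 0.09, adjusted p 0.000308), beside 17.1% of all genes higher and 15.6% lower. Without double knockdown replicate 3, 4 of the 9 were lower and 1 higher, beside 17.2% and 16.9% of all genes. With all libraries the median of the 9 was -0.22.

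Direct comparisons between knockdowns gave few calls. Against Yap siRNA, limma called the double knockdown lower in Tyms alone (-0.45 (SE 0.14, adjusted p 0.0468)), beside 6.96% of all genes. DESeq2 called Tyms and Rpa2 lower (9.42%). The median was -0.25, and 43 members lay below 0, beside 5777 of the 11871 genes. An unadjusted limma p under 0.05 was reached by 7 members, beside 3473 of the 11871 genes, which is a larger share. Without double knockdown replicate 3, 18 members were lower (8.58% of all genes), and the Tyms call held in 4 of the 12 fits that left out a library. Against Wwtr1 siRNA, limma called the double knockdown lower in Pold2 alone (-0.40 (SE 0.11, adjusted p 0.0226)), beside 10.1% of all genes. There, 34 members lay below 0, beside 5794 of the 11871 genes, and the median was -0.08. Without replicate 3, 6 were lower: Cdc6, Cdc45, Rfc4, Pola2, Pold2 and Tk1 (9.86% of all genes). Without replicate 1 the median was 0.04, so its direction rested on that library. With all libraries, Gins2 was 0.60 above Wwtr1 siRNA in the double knockdown (SE 0.21, adjusted p 0.0621) and not called, but it was called higher with total count scaling, DESeq2 and the block over all 12 libraries (adjusted p 0.0365, 0.0252 and 0.042). Tyms was also the member called between the single knockdowns, 0.60 (SE 0.14, adjusted p 0.0189) higher with Yap than with Wwtr1 siRNA, beside 4.57% of all genes. The block over the 9 libraries of the negative, Yap and Wwtr1 siRNA groups gave 5 members higher with Yap siRNA (11.6% of all genes), Tyms, Dut, Tk1, Pcna and Lig1, and Pold2 lower, whereas over all 12 libraries Tyms was the 1 call. The interaction is the double knockdown change minus the sum of both single changes. No member was called for it by limma, edgeR or DESeq2, beside 1.03% of all genes by limma. Dut was the only member at an unadjusted limma p under 0.05, beside 1663 of the 11871 genes. The interaction median was 0.18, and -0.03 without double knockdown replicate 3.

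Genes of the same process outside the list were counted in the same way. Of 57 other replication genes, 50 were tested. In the double knockdown 20 were lower and 1 higher (Top1, a topoisomerase, 0.24), with a median of -0.36, beside 15.6% of all genes lower and 17.1% higher, and 30 were lower without replicate 3, beside 17.2%. Mcm8, a helicase of recombination repair, had the largest change, -1.11 (SE 0.31, adjusted p 0.0179). With Wwtr1 siRNA 4 were lower, beside 3.96% of all genes, and 7 without double knockdown replicate 3, beside 5.64%. The largest change of the 4 was in Dscc1, of an alternative clamp loader, at -0.90 (SE 0.24, adjusted p 0.0363), and the median of the 50 with Yap siRNA was -0.21. Of 26 mitosis genes, 24 were tested. All 24 had fold changes below 0 in the double knockdown, beside 5878 of the 11871 genes, with a median of -0.44. There, 10 were lower by the test, beside 15.6% of all genes, and Kif23, a kinesin of cytokinesis, had the largest change, -0.69 (SE 0.12, adjusted p 0.00124). Without replicate 3, 17 were lower, beside 17.2%. Mitosis gene medians were -0.61, -0.55 and -0.10 in the 3 double knockdown libraries, beside -0.75, -0.58 and -0.11 for the replication genes.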

How the data were processed

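RNA was sequenced from 12 libraries in 4 siRNA groups. The authors trimmed reads with Trim Galore 0.6.5, aligned them to rat build rn6 with HISAT2, estimated abundance with StringTie and normalized with DESeq2. The deposited signal values are counts divided by a size factor per library. Within a tolerance of 0.01 steps, 100.0% of 147252 values came out as whole reads (33886920 to 41059839 per library), and intervals of these counts would cover counting error only. The size of 1 read was estimated from the spacing of values. In 6 of the 12 columns the smallest value is not 1 such step or the step is close to 1, so those reads are less certain. Columns of the authors' comparisons hold fold changes and p-values and were not used.

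limma 3.58.1 (R 4.3.3, lmFit and eBayes with trend) was fitted on log2(normalized count + 1) to all 12 libraries with no covariate. The 11871 genes whose mean reached 10 were tested, two-sided, with Benjamini-Hochberg adjustment over all of them and a threshold of 0.05. Fold changes on this scale understate the change of low genes. Steps were tested on simulated data. Members and lists were chosen with earlier results of these data known. All members are accounted for, and those called against negative siRNA, as well as Mcm2, Mcm5, Cdc6, Cdt1, Pcna, Rrm2, Tyms, Tk1, E2f1, Ccne1, Ccne2 and Gmnn, have values in every library. E2f2, also named by this rule, was not analysed here. From the other replication, E2F and pocket protein, mitosis and G1 lists the called gene of largest change in the double knockdown is named. Interferon-induced genes and cell type markers are given mainly by medians, counts or sums.

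Deviations of same-numbered libraries from their group means correlated at 0.104 to 0.276 among the negative, Yap and Wwtr1 siRNA groups, all over 0.1, so the numbers were taken to pair these groups. Correlations with the double knockdown ran from -0.127 to 0.18, so that group was not taken as paired. The 0.18, of replicate 1 with Wwtr1 siRNA, exceeded some correlations among the paired groups. These values do not settle whether the double knockdown shares litters with the other groups by number. The study states separate litters for the replicates. Alternatives were other pseudocounts (0.1 and 10), filters, scalings, edgeR 4.0.16 and DESeq2 1.42.0 on recovered reads, a replicate block, fits on the compared groups and leaving out each library. Strand use in counting is not given in the sources used here.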

Additional observations from a re-analysis of the deposited data

Results flagged for a closer look

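Ccnd1, cyclin D1, which is not one of the replication genes but was measured beside them as a G1 regulator, was picked out because the effect of one siRNA differed with the other siRNA present. Its interaction, the double knockdown change minus the sum of the single changes, was -1.19 (SE 0.15, limma adjusted p 0.00524). Each single knockdown was higher than negative siRNA, by 0.59 with Yap siRNA and 1.09 with Wwtr1 siRNA. The double knockdown was higher by 0.50, less than either. It was called lower than Wwtr1 siRNA by limma and was not called against Yap siRNA.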

How the results depend on the processing

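No member changed direction against negative siRNA in the double knockdown in any of the 23 alternatives, and the 4 members called with Wwtr1 siRNA kept theirs. The number of members called was less steady. Shares of all genes are not given for every alternative, so a moved count can be a change over all genes. In the double knockdown the number called went from 21 to 12 when only the compared groups were fitted. As single libraries were left out, it ran from 8 (without double knockdown replicate 1, 12.4% of all genes lower) to 40 (without its replicate 3, 17.2%). With Wwtr1 siRNA the 4 became 7 by DESeq2, 12 with only the compared groups, 12 with the replicate block over all libraries and 25 with the block but without the double knockdown, and 2 to 14 as libraries were left out, the highest again without double knockdown replicate 3. With Yap siRNA, 0 became 1 at a mean of at least 100, 2 by DESeq2, 1 with only the compared groups, 2 with the block and 11 with the block but without the double knockdown, and 0 to 2 as libraries were left out. Against Yap siRNA the double knockdown had 1 call, 0 with total count scaling, only the compared groups or no trend, 2 by DESeq2, and 0 to 18 over the libraries left out. Against Wwtr1 siRNA it had 1 (Pold2, lower), 2 under total count scaling, DESeq2 or the block, where Gins2 was added as higher, 0 with only the compared groups, and 0 to 6 over the libraries. Yap against Wwtr1 siRNA had 1 call, 6 with the block but without the double knockdown, and 0 to 3 over the libraries. The replicate block moved no other count by over 1.5 times. The largest value of each of these last ranges came without double knockdown replicate 3. As libraries were left out, the median against Wwtr1 siRNA ran from -0.254 to 0.041, turning without double knockdown replicate 1, and the interaction median from -0.026 to 0.295, turning without replicate 3. The E2F-type share moved from 48.72% to 25.64% with only the bases before the start, and the CHR share of mitosis genes from 77.27% to 45.45%, where fewer bases were searched. The cause of the other changes was not tested. Fits with a group of 2 take the spread from all groups.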

Other observations

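The regulators of the G1 phase, which act before the E2F genes, were measured in the same libraries. Of 13 listed, 12 were tested. In the double knockdown 4 fell (beside 15.6% of all genes) and 2 rose (beside 17.1%), and the median log2 fold change was 0.05. Ccnd1, cyclin D1, was 3417, 2748 and 2544 normalized counts in the negative siRNA libraries, 4662, 4509.7 and 3879.6 after Yap siRNA, 6339, 5837 and 6256 after Wwtr1 siRNA, and 4177, 4280.4 and 3752 after both. All 9 knockdown libraries were above all 3 negative siRNA libraries. It rose with limma by 0.59 (SE 0.11, adjusted p 0.0128) after Yap siRNA, 1.09 (SE 0.11, adjusted p 0.000244) after Wwtr1 siRNA and 0.50 (SE 0.11, adjusted p 0.00442) in the double knockdown. Myc, a growth-promoting transcription factor, had the largest change of the list there, -0.64 (SE 0.14, limma adjusted p 0.00434). With Wwtr1 siRNA 2 of the 12 were called, both higher, beside 594 of the 11871 genes. Beside Ccnd1 this was Cdkn2b, of a cyclin-dependent kinase inhibitor (0.74, SE 0.175, limma adjusted p 0.0212). Cdkn2b and the other calls of the double knockdown are named after their values were seen. In the double knockdown the other calls were as follows. Ccnd3 and Ccnd2, which like Ccnd1 encode D-type cyclins, and Cdk4, a kinase they bind, fell, and Cdkn1b, the cyclin-dependent kinase inhibitor p27, rose by 0.37 (SE 0.09, limma adjusted p 0.00788). Without double knockdown replicate 3, 5 of the 12 were lower and 3 higher, beside 17.2% and 16.9% of all genes.

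Prim1, the catalytic subunit of primase, was singled out after its values were seen. It was 1709.6, 882 and 1254 normalized counts in the negative siRNA libraries, 1462, 683 and 1245 after Yap siRNA, 1037, 770.5 and 1207 after Wwtr1 siRNA, and 953, 745 and 1309 after both. Replicate 2 was the lowest in all 4 groups, as it was in 2 of the 46 members, a count not made over all genes.

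Replicate 3 was the highest library of its group for 34 of the 46 members after Yap siRNA, 38 after Wwtr1 siRNA and 44 after both. In 29 members it was the highest in all 3 of these groups. These counts were not made over all genes, so whether the order is particular to the members is not shown. The mitosis gene median was also highest in replicate 3 of each of these groups.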
